A study of Homo sapiens with 12 samples.

Results

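The proteasome genes are the 49 protein-coding genes of GENCODE 29 whose symbol starts with PSMA, PSMB, PSMC, PSMD, PSME, PSMF or PSMG followed by a number, of 58735 genes in the count tables and 19951 that are protein-coding. They comprise 8 genes for the alpha ring, 7 for the constitutive beta ring, 4 for inducible or tissue-specific beta subunits, 6 for the ATPases and 11 for the other subunits of the regulatory particle, 4 for activators, 1 for an inhibitor and 7 for assembly chaperones. The remaining gene, PSMC3IP, has the letters of the rule in its symbol but codes for a factor of meiotic recombination, not for a proteasome subunit. All 49 were kept. RNA was sequenced as 126 nt paired reads from HEK293T cells, a human embryonic kidney line carrying the SV40 large T antigen, 24 h after transfection with Lipofectamine 2000. Cells received 500 ng of a plasmid for the microRNA miR-211 (3 libraries) or of a control plasmid (3 libraries). Others received 1 nM siRNA of the Dicer-substrate kind directed at U1 (3 libraries), the small nuclear RNA that pairs with 5 prime splice sites, or a scrambled oligo (3 libraries). The titles of the U1 siRNA and scrambled-oligo libraries carry the letters WT, and those of the plasmid libraries do not. The labels state that at least 50% of cells took up plasmid and that the siRNA lowered U1 by 30%. Untransfected cells may therefore remain in a library. Whether the 3 libraries of a group are separate cultures is not stated, and the spread that the p-values rest on may therefore be technical only.

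The proteasome degrades proteins tagged with ubiquitin. Its barrel-shaped core particle (20S) has outer alpha rings that form the gate and inner beta rings that hold the proteolytic sites, and the regulatory particle (19S) binds, unfolds and feeds in substrates through a ring of ATPases. Interferon gamma induces alternative catalytic beta subunits, which form the immunoproteasome and change which peptides are available for antigen presentation. Cells short of proteasome activity raise nearly all subunit genes together through the transcription factor NFE2L1.

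The values are read counts per gene, given as CPM (a gene's counts scaled to the library's total over genes) and, for comparisons between genes, as CPM per kb of annotated exon. Totals ran from 4515728 to 9290686 counts per library, and 47 to 49 of the 49 genes had counts in each. U1 siRNA replicate 2 stood apart, with the lowest total and 44.5% of its uniquely mapped pairs outside annotated exons, against 14.5% to 25.5% in the other 11 libraries. MIR211 counts separated the plasmid groups, at 254.3 ± 17.6 CPM with miR-211 and 0.530 ± 0.663 CPM with the plasmid control (SD, n = 3 each). Summed CPM of 15 U1 snRNA genes, chosen by symbol, were 16.6 ± 2.51 for U1 siRNA and 18.4 ± 1.65 for the scrambled oligo (SD, n = 3 each), and the groups overlapped (exact 2-sided permutation p 0.5, where the smallest possible is 0.1). These sums rest on 63 to 153 counts per library, and pairs that map equally well to several gene copies are not counted. They therefore cannot decide whether U1 fell by the 30% that the labels state. Of 9 genes that mark HEK293 cells, 8 had a mean of at least 1 CPM in every group and PAX2 did not. Summed CPM were at most 17.9 for 6 fibroblast markers, 13.5 for 6 blood cell markers and 6.20 for 4 melanocyte markers, each reached in a U1 siRNA library.

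The proteasome genes took a near constant share of each transcriptome. Together they held 1.26% ± 0.029 of gene counts with miR-211, 1.26% ± 0.0052 with the plasmid control, 1.24% ± 0.029 for U1 siRNA and 1.24% ± 0.014 for the scrambled oligo (SD, n = 3 each). Over single libraries the share ran from 1.21% in U1 siRNA replicate 2 to 1.29% in miR-211 replicate 3. In RNA from bulk cells, fewer expressing cells and less RNA per cell cannot be told apart. The 31 constitutive core and regulatory-particle subunits carried 90.4% of the counts of the 49 genes. Across all 12 libraries the 42 proteasome genes with a mean of at least 10 CPM had a median coefficient of variation of 6.67%, beside 9.70% for the 7428 genes of that level. At 100 CPM or more the medians were 6.25% for 33 proteasome genes and 6.98% for 1969 genes.

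Per kb of exon the highest levels were those of PSMB5 at 556 CPM per kb, PSMB3 at 551 CPM per kb and PSMB6 at 365 CPM per kb, all of the constitutive beta ring. The lowest were PSMB8 at 0.0619 CPM per kb, PSMB11 at 0.109 CPM per kb and PSMA8 at 0.186 CPM per kb. With the length of the longest transcript in place of the union of exons, PSMB3 came first at 841 CPM per kb and PSMB5 second at 759 CPM per kb, and the same 3 genes stayed lowest. PSMB5 and PSMB3 therefore have no fixed order.

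**Figure D1:**
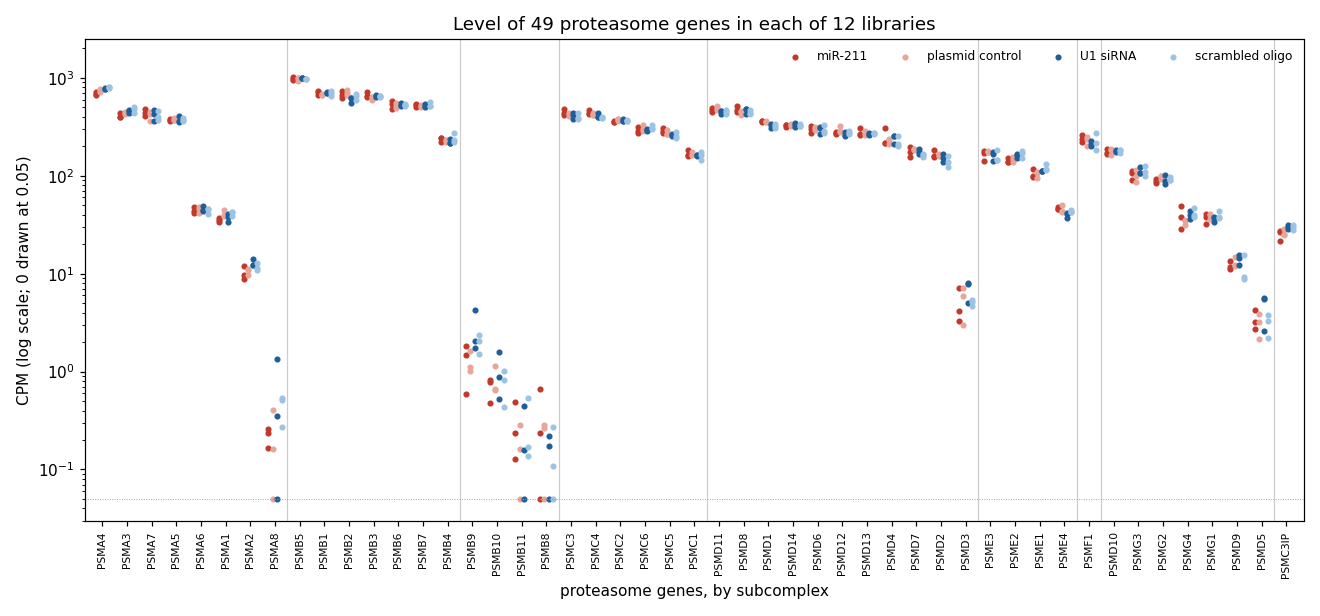
Level of each of the 49 proteasome genes in CPM (vertical log axis, zeros drawn at 0.05) in each of 12 libraries, with genes along the horizontal axis grouped by subcomplex and separated by grey lines, and colours for the 4 groups. Points of the 4 groups lie on top of each other for most genes, and PSMA8, PSMB8, PSMB10 and PSMB11 average under 1 CPM.

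The alpha ring forms the gate of the core particle. Its 7 general subunits, PSMA1 to PSMA7, spanned 2.12 to 239.9 CPM per kb, although the assembled ring holds them in equal numbers. PSMA7 was highest, and PSMA3 (143 CPM per kb), PSMA4 (107 CPM per kb) and PSMA5 (65.2 CPM per kb) followed. PSMA1 (11.7 CPM per kb), PSMA6 (6.92 CPM per kb) and PSMA2 (2.12 CPM per kb) lay below them. The gap depends on the length used. With that of the principal transcript the same 3 genes stayed lowest, at 25.8, 43.7 and 7.61 CPM per kb, beside 100.1 CPM per kb for PSMA5. PSMA1, PSMA2 and PSMA6 each share exons on the same strand with another annotated gene. The overlap covers 53.2% of the principal transcript of PSMA1, 52.5% of that of PSMA2 and 81.0% of that of PSMA6. A pair that falls on exons of both genes is counted for neither, and the overlapping genes themselves had 0 or 1 counts per library. None of PSMA3, PSMA4, PSMA5 and PSMA7 has such an overlap. How much of the low counts this accounts for was not tested. PSMA8, the testis form of PSMA7, had counts of 1, 2 and 2 in the miR-211 libraries, against 1, 0 and 3 in the plasmid controls, and of 0, 6 and 2 in the U1 siRNA libraries, against 2, 3 and 5 in the scrambled-oligo libraries, and groups overlapped in both comparisons. The alpha-ring sums were 2000.2 ± 66.5 CPM for miR-211, 2070.1 ± 41.3 CPM for its plasmid control, 2122 ± 86.8 CPM for U1 siRNA and 2148 ± 11.7 CPM for its scrambled oligo (SD, n = 3 each).

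The constitutive beta ring held the 5 highest levels per kb of the 49 genes by the union of exons, while with the longest transcript PSMA7 of the alpha ring (410.4 CPM per kb) lay above PSMB1 (359 CPM per kb). By the union of exons its 7 genes spanned 107 CPM per kb for PSMB4 to 556 CPM per kb for PSMB5. The catalytic genes are PSMB5 (chymotrypsin-like activity, chromosome 14, 23016543 to 23035230, minus strand, GRCh38), PSMB6 (caspase-like activity, chromosome 17, 4796144 to 4798503, plus strand) and PSMB7 (trypsin-like activity, chromosome 9, 124353466 to 124415444, minus strand). PSMB5 had 946, 1030.1 and 977 CPM in the miR-211 libraries, against 926, 996 and 989.5 CPM in the plasmid controls. It had 995, 993 and 1007 CPM in the U1 siRNA libraries, against 976, 981 and 968 CPM in the scrambled-oligo libraries. The plasmid groups overlapped, while all 3 U1 siRNA libraries lay above all 3 scrambled-oligo libraries, by 2.41% on average.

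PSMB6 had 478, 539.5 and 574 CPM in the miR-211 libraries, against 491, 521 and 549 CPM in the plasmid controls. It had 557, 519.5 and 531 CPM in the U1 siRNA libraries, against 522, 526 and 539 CPM in the scrambled-oligo libraries, and neither pair of groups was separate. PSMB7 had 532, 507 and 545 CPM in the miR-211 libraries, against 523, 516 and 505 CPM in the plasmid controls. Its libraries of the other comparison held 538, 518 and 507 CPM in the U1 siRNA libraries, against 569, 509.7 and 515 CPM in the scrambled-oligo libraries. Both comparisons overlapped for PSMB7 as well. The ring's sums were 4326 ± 131 CPM for miR-211, 4238 ± 54.9 CPM for its plasmid control, 4243 ± 30.9 CPM for U1 siRNA and 4261 ± 94.3 CPM for its scrambled oligo (SD, n = 3 each), so the means of the 4 groups lay within 1 SD of the miR-211 group.

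The immunoproteasome genes were close to the detection limit in every library. PSMB8 and PSMB9 lie side by side in the major histocompatibility region (chromosome 6, 32840717 to 32844703, minus strand and chromosome 6, 32844136 to 32859585, plus strand, GRCh38), and PSMB10 on chromosome 16 (67934502 to 67937087). PSMB8 is the inducible counterpart of PSMB5, with 62.8% identical residues over 258 aligned, PSMB9 that of PSMB6 (59.8% over 219) and PSMB10 that of PSMB7 (56.8% over 273).

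PSMB8 had counts of 4, 2 and 0 in the miR-211 libraries, against 0, 2 and 2 in the plasmid controls. It had 0, 1 and 1 in the U1 siRNA libraries, against 2, 0 and 1 in the scrambled-oligo libraries. A count of 0 allows up to 3 counts, which is 0.323 to 0.664 CPM depending on the library, so PSMB8 was at or under this limit in all libraries but miR-211 replicate 1.

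PSMB9 was counted in every library, at 1.48, 0.591 and 1.81 CPM in the miR-211 libraries, against 1.12, 1.01 and 1.60 CPM in the plasmid controls. It had 2.05, 4.21 and 1.74 CPM in the U1 siRNA libraries, against 2.04, 1.52 and 2.37 CPM in the scrambled-oligo libraries. The highest value was that of U1 siRNA replicate 2, the library with most pairs outside exons, and the groups overlapped in both comparisons. PSMB10 had 0.824, 0.473 and 0.776 CPM in the miR-211 libraries, against 0.642, 1.15 and 0.668 CPM in the plasmid controls. It had 1.58, 0.886 and 0.523 CPM in the U1 siRNA libraries, against 0.818, 1.02 and 0.431 CPM in the scrambled-oligo libraries, with overlap in both comparisons. PSMB10 shares 45.3% of its principal transcript with AC040162.1 on the same strand, which had 4 to 14 counts per library. PSMB8, PSMB9 and the antisense gene PSMB8-AS1 also overlap, so reads of these genes could not be fully separated. PSMB11, the thymic form, had counts of 3, 2 and 1 in the miR-211 libraries, against 1, 2 and 0 in the plasmid controls, and of 1, 2 and 0 in the U1 siRNA libraries, against 1, 1 and 5 in the scrambled-oligo libraries. Its groups overlapped as well.

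As a share of the 6 catalytic genes, summed per kb, PSMB8, PSMB9 and PSMB10 made up 0.074% ± 0.029 with miR-211, 0.076% ± 0.013 with the plasmid control, 0.12% ± 0.042 for U1 siRNA and 0.090% ± 0.0063 for the scrambled oligo (SD, n = 3 each). Groups overlapped in both comparisons. By counts alone the share ran from 0.0626% (exact 95% interval 0.0312% to 0.112%, 11 of 17574 counts) in miR-211 replicate 2 to 0.261% (0.167% to 0.388%, 24 of 9192 counts) in U1 siRNA replicate 2. These intervals cover counting error only. Without U1 siRNA replicate 2 the mean share per kb with U1 siRNA was 0.0978%. The share depends on the length used, and with that of the principal transcript the means were 0.130%, 0.128%, 0.225% and 0.170% for miR-211, plasmid control, U1 siRNA and scrambled oligo.

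**Figure D2:**
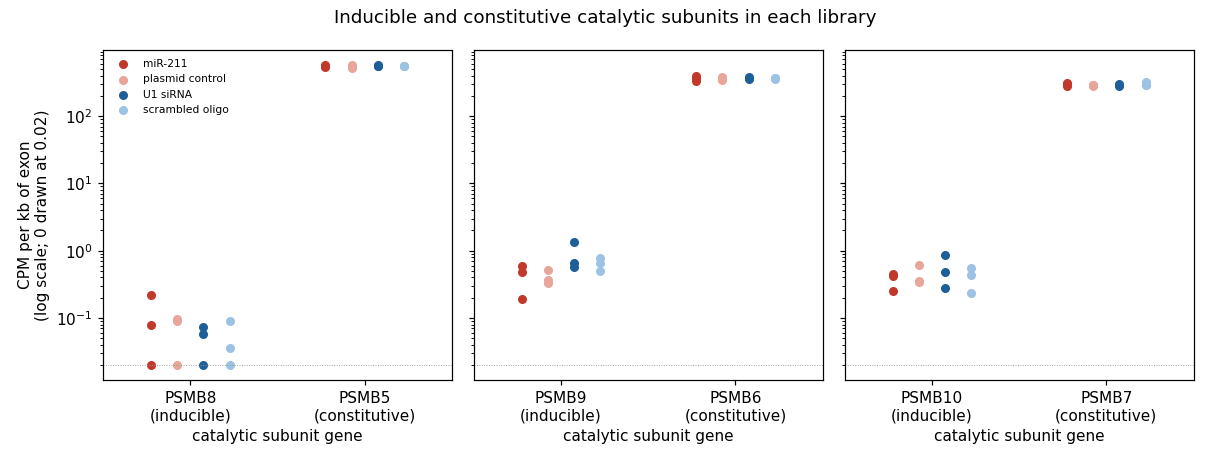
CPM per kb of exon (vertical log axis, zeros drawn at 0.02) of each inducible catalytic gene and its constitutive counterpart, 1 pair per panel, with a point for each of 12 libraries coloured by group. The inducible genes lie at least 2 powers of 10 below their counterparts in every library. The groups of each comparison overlap, except for PSMB5, whose U1 siRNA libraries all lie above its scrambled-oligo libraries.

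The regulatory particle's base contains the ATPases PSMC1 to PSMC6, which unfold substrates and open the gate. Per kb, PSMC3 (186 CPM per kb) and PSMC4 (175 CPM per kb) were highest and PSMC1 (26.6 CPM per kb) lowest. PSMC1 overlaps NRDE2 on the opposite strand over 82.1% of its principal transcript, and its 2 strand columns together hold 1.75 times its unstranded count. The same ratio was 1.71 for PSMC5, which overlaps FTSJ3, and 1.72 for PSMD7, which overlaps AC009120.2. Unstranded counting drops pairs that fall on both genes. PSMC1 also has 13 named pseudogenes, of 32 that 12 of the 49 genes have, and pairs that map equally well to such copies were not counted. The ATPase sums were 2001 ± 50.2 CPM for miR-211, 1976 ± 54.6 CPM for its plasmid control, 1906 ± 60.2 CPM for U1 siRNA and 1893 ± 22.8 CPM for its scrambled oligo (SD, n = 3 each).

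The other 11 subunits of the regulatory particle include the ubiquitin receptor PSMD4, the large scaffold subunits PSMD1 and PSMD2, and PSMD14 (chromosome 2, 161308038 to 161411717, plus strand, GRCh38), the protease that cuts ubiquitin off the substrate. PSMD14 had 330.3, 313 and 327 CPM in the miR-211 libraries, against 332, 335 and 320.1 CPM in the plasmid controls. It had 344, 315 and 333 CPM in the U1 siRNA libraries, against 339, 325 and 325 CPM in the scrambled-oligo libraries. Its coefficient of variation over 12 libraries, 2.86%, was among the lowest of the 49 genes, and groups overlapped in both comparisons.

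PSMD3, a lid subunit, was an exception among the 11, at 1.12 CPM per kb beside 28.4 to 147 CPM per kb for the other 10. It had 4.12, 3.31 and 7.11 CPM in the miR-211 libraries, against 5.94, 3.02 and 7.21 CPM in the plasmid controls. It had 5.04, 7.97 and 7.84 CPM in the U1 siRNA libraries, against 4.63, 5.42 and 5.17 CPM in the scrambled-oligo libraries. No annotated gene overlaps its exons, and its groups overlapped in both comparisons. The sums of these 11 genes were 3076 ± 127 CPM for miR-211, 3078 ± 36.1 CPM for its plasmid control, 2972 ± 133 CPM for U1 siRNA and 2915 ± 132 CPM for its scrambled oligo (SD, n = 3 each).

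Among the activators, PSME1 and PSME2 build the interferon-inducible PA28 cap, and their genes lie close together on chromosome 14 (24136158 to 24138967 and 24143362 to 24147570, GRCh38). Unlike the inducible catalytic genes, both were well counted. PSME1 had 99.7, 118 and 97.7 CPM in the miR-211 libraries, against 95.6, 106 and 109.8 CPM in the plasmid controls. It had 111, 112 and 111 CPM in the U1 siRNA libraries, against 113, 130.3 and 116 CPM in the scrambled-oligo libraries. All 3 U1 siRNA libraries lay below all 3 scrambled-oligo libraries.

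PSME2 had 139, 152 and 139 CPM in the miR-211 libraries, against 138, 149.5 and 154 CPM in the plasmid controls. It had 163, 168 and 152 CPM in the U1 siRNA libraries, against 171, 179 and 153 CPM in the scrambled-oligo libraries, and both comparisons overlapped. PSME3, the nuclear activator subunit PA28 gamma, had 143, 179 and 169 CPM in the miR-211 libraries, against 175, 174 and 177 CPM in the plasmid controls. It had 176, 143 and 168 CPM in the U1 siRNA libraries, against 145, 145 and 184 CPM in the scrambled-oligo libraries. Here too the groups overlapped. PSME4, the large activator PA200, had 47.6, 46.1 and 45.8 CPM in the miR-211 libraries, against 50.6, 42.6 and 43.3 CPM in the plasmid controls. It had 41.3, 40.3 and 37.1 CPM in the U1 siRNA libraries, against 44.3, 43.0 and 42.3 CPM in the scrambled-oligo libraries. Its U1 siRNA libraries were all below its scrambled-oligo libraries, and its plasmid groups overlapped. The activator sums were 459 ± 33.6 CPM for miR-211, 472 ± 13.0 CPM for its plasmid control, 474 ± 15.4 CPM for U1 siRNA and 489 ± 13.0 CPM for its scrambled oligo (SD, n = 3 each).

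PSMF1, the inhibitor PI31, summed to 239.9 ± 21.2 CPM for miR-211, 229 ± 22.9 CPM for its plasmid control, 212 ± 14.1 CPM for U1 siRNA and 223 ± 46.2 CPM for its scrambled oligo (SD, n = 3 each). Of the assembly chaperones, PSMG1 to PSMG4 act on the core particle and PSMD5, PSMD9 and PSMD10 on the base. PSMD10 (72.3 CPM per kb) and PSMG3 (54.6 CPM per kb) were the highest of the 7, and PSMD9 (1.43 CPM per kb) and PSMD5 (0.799 CPM per kb) the lowest. With the longest transcript both stayed lowest, at 4.11 and 1.03 CPM per kb. PSMD9 shares 19.9% of its exon length on the same strand with other genes, among them WDR66, which had 22 to 70 counts per library. How much this lowers its counts was not tested. Sums of the 7 chaperones were 457 ± 30.1 CPM for miR-211, 465 ± 2.92 CPM for its plasmid control, 477 ± 19.1 CPM for U1 siRNA and 478 ± 12.1 CPM for its scrambled oligo (SD, n = 3 each). PSMC3IP had 21.7 to 31.4 CPM per library and overlaps MLX on the opposite strand. Its strand columns together hold 2.58 times its unstranded count, so these CPM leave out many of its pairs.

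**Figure D3:**
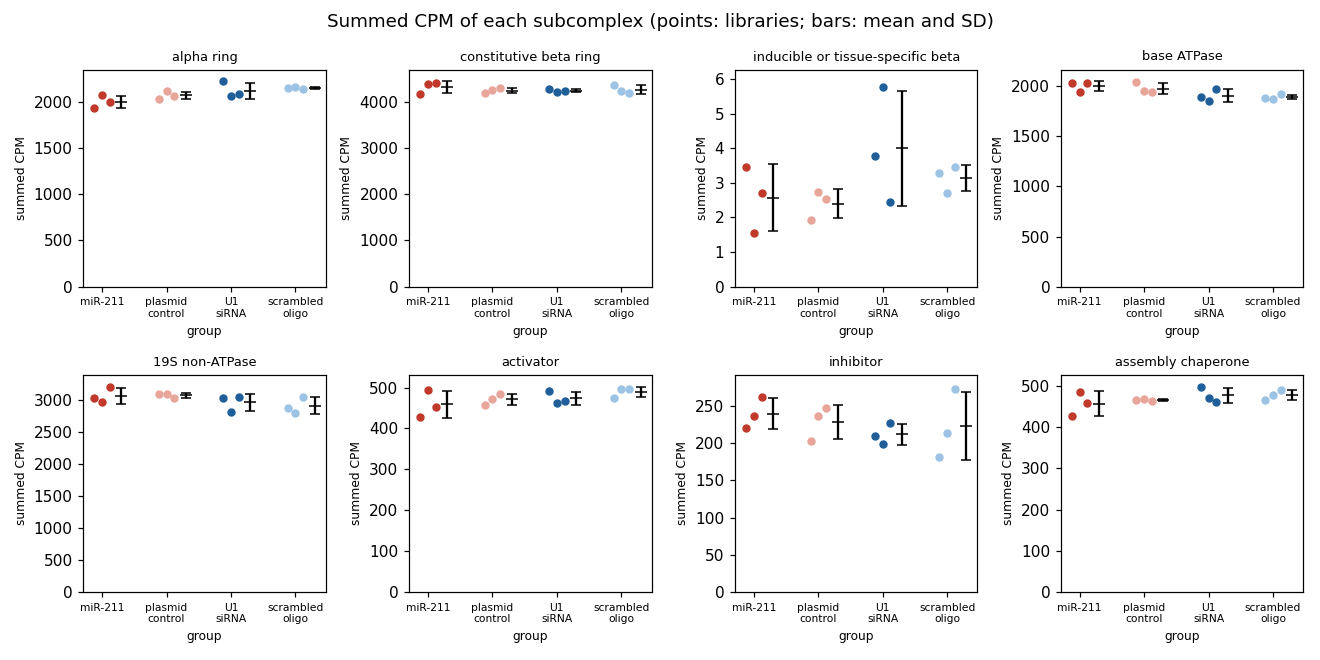
Summed CPM of the genes of each of 8 subcomplexes (vertical axis from 0) in the 4 groups, with 1 point per library and bars for the mean and SD of 3 libraries. Outside the panel of inducible or tissue-specific beta subunits, whose sums stay under 6 CPM, the libraries of the 2 groups of each comparison overlap, as they do in that panel too.

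With miR-211 no proteasome gene passed the test. Of the 49 genes, 45 were tested, since PSMA8, PSMB8, PSMB10 and PSMB11 fell under the filter on low counts, and 0 of 45 were called (edgeR quasi-likelihood test, adjusted p at least 0.996 for each). Of all 12685 genes tested, 1 was called, MIR211 itself, or 0.00788%. At an unadjusted p under 0.05 there were 0 proteasome genes, beside 3.29% of all genes. DESeq2 and limma-voom also called 0 proteasome genes. With the replicate number as a block, which the correlations of same-numbered libraries call for, 2 of the 45 had an unadjusted p under 0.05, PSMB3 and PSMD8, beside 7.43% of all genes, and 0 were called (edgeR, lowest adjusted p 0.645).

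The log2 fold changes of the 45 genes ran from -0.18 for PSMA1 to 0.22 for PSMG4, with 44 of 45 within 0.2 of 0. Beside this stand 75.9% of all genes tested and 91.3% of the 7382 genes with a mean of at least 10 CPM. Their median was 0.04, beside 0.0079 over all genes tested, with 26 above 0 and 19 below. The median fell to -0.0020 without plasmid control replicate 1. In the fit without the replicate block all 45 intervals (95%) included 0. Of these, 41 lay wholly within 0.5 of 0, beside 57.6% of all genes tested. That share is not matched for level: 42 of the 45 had a mean of at least 10 CPM, as had 7382 of 12685 genes tested. With the block PSMB3 (0.12, SE 0.05) and PSMD8 (0.13, SE 0.05) had an unadjusted p under 0.05 (edgeR). Intervals from that fit would leave out 0 for both, and neither was called. From centre to bound the 45 intervals without the block had a median width of 0.17, and the widest, 0.99, was that of PSMB9. By subcomplex the medians were 0.06 for the 7 constitutive beta genes, 6 of which were above 0, 0.07 for the 6 ATPases, 0.0030 for the 11 other regulatory-particle subunits, -0.02 for the 7 alpha-ring genes tested and -0.0076 for the 7 chaperones. None of these values carries a test of its own.

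Log2 fold changes are given ± SE, from the fit without the replicate block unless stated. The highest was that of PSMG4, a core-particle assembly chaperone, which had 28.7, 37.8 and 48.9 CPM in the miR-211 libraries, against 31.5, 35.5 and 34.3 CPM in the plasmid controls. The groups overlapped, with replicate 1 of miR-211 the lowest of the 6 libraries and its replicate 3 the highest (log2 fold change 0.22 ± 0.15, 95% interval -0.10 to 0.55). PSMD5, a chaperone of the base, had 4.28, 2.72 and 3.23 CPM in the miR-211 libraries, against 3.85, 2.16 and 3.21 CPM in the plasmid controls and a log2 fold change of 0.16 ± 0.29. PSMD4, the ubiquitin receptor, had 217, 218 and 306 CPM in the miR-211 libraries, against 212, 239.9 and 231 CPM in the plasmid controls. Its value of 0.15 ± 0.12 rested on replicate 3 of miR-211, which lay above the other 5 libraries.

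The lowest was PSMA1, an alpha-ring subunit, at 33.8, 37.1 and 35.4 CPM in the miR-211 libraries, against 44.2, 40.0 and 39.0 CPM in the plasmid controls. The groups were separate, all miR-211 libraries being lower (log2 fold change -0.18 ± 0.10, 95% interval -0.39 to 0.03). PSMD3 followed at -0.13 ± 0.32 from the low counts given above, with groups that overlapped. PSMG2, a core-particle chaperone, had 88.6, 92.0 and 83.9 CPM in the miR-211 libraries, against 99.1, 99.6 and 93.1 CPM in the plasmid controls, and its groups were separate too (log2 fold change -0.11 ± 0.08).

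Groups did not overlap in CPM for 4 of the 45 genes with miR-211, beside 9.7% of all genes tested. Besides PSMA1 and PSMG2, the ATPase PSMC2 was lower, at 359, 356 and 357 CPM in the miR-211 libraries, against 384, 382 and 365 CPM in the plasmid controls, a log2 fold change of -0.05 ± 0.07. The beta-ring gene PSMB3 was higher, at 642, 650.4 and 717 CPM in the miR-211 libraries, against 598, 639 and 642 CPM in the plasmid controls. For PSMB3 the gap between groups was narrow, the lowest miR-211 library lying just above the highest control (log2 fold change 0.12 ± 0.07, and 0.12 ± 0.05 with the replicate block). In the other comparison PSMB3 had 673, 637 and 657 CPM in the U1 siRNA libraries, against 649.9, 649 and 642 CPM in the scrambled-oligo libraries, with overlap.

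MicroRNAs find targets through the seed, bases 2 to 8, which pairs with sites in 3 prime UTRs. The mature miR-211 sequence (RefSeq, GRCh38.p14) is shown with the 3 sites of 8 bases (8mer) found in the proteasome transcripts examined, 1 for each gene. The seed and the sites are in capitals. Matches of 7 bases, in PSMA5 and a further one in PSMC1, are not shown. Site positions are from GENCODE 29 on GRCh38.
hsa-miR-211-5p, chr15:31065095-31065116, minus strand: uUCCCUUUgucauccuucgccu
PSMC1, chr14:90274917-90274946, plus strand: tgttcagttagAAAGGGAAagtcacactgg
PSMC6, chr14:52727815-52727844, plus strand: cagcaagttacAAAGGGAAagtgttgaagc
PSMD5, chr9:120816846-120816875, minus strand: gttgatcagagAAAGGGAAacttactccta

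Of the 49 genes, these 3 had an 8mer match (AAAGGGAA) in the 3 prime UTR of the transcript examined and PSMA5 had a 7mer match only. That is 6.12% and 2.04% of the 49, beside 7.64% and 16.7% of 19000 protein-coding genes. Proteasome 3 prime UTRs are short, with a median of 337 bases beside 971 over those genes. PSMC1, an ATPase, had a log2 fold change of 0.04 ± 0.08 with miR-211, PSMC6, another ATPase, -0.04 ± 0.08, and PSMD5 0.16 ± 0.29. PSMA5, of the alpha ring, had 0.01 ± 0.07. None of the 4 was called, and 3 of the 4 values were above 0. A match of letters does not show that a site is used.

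**Figure D4:**
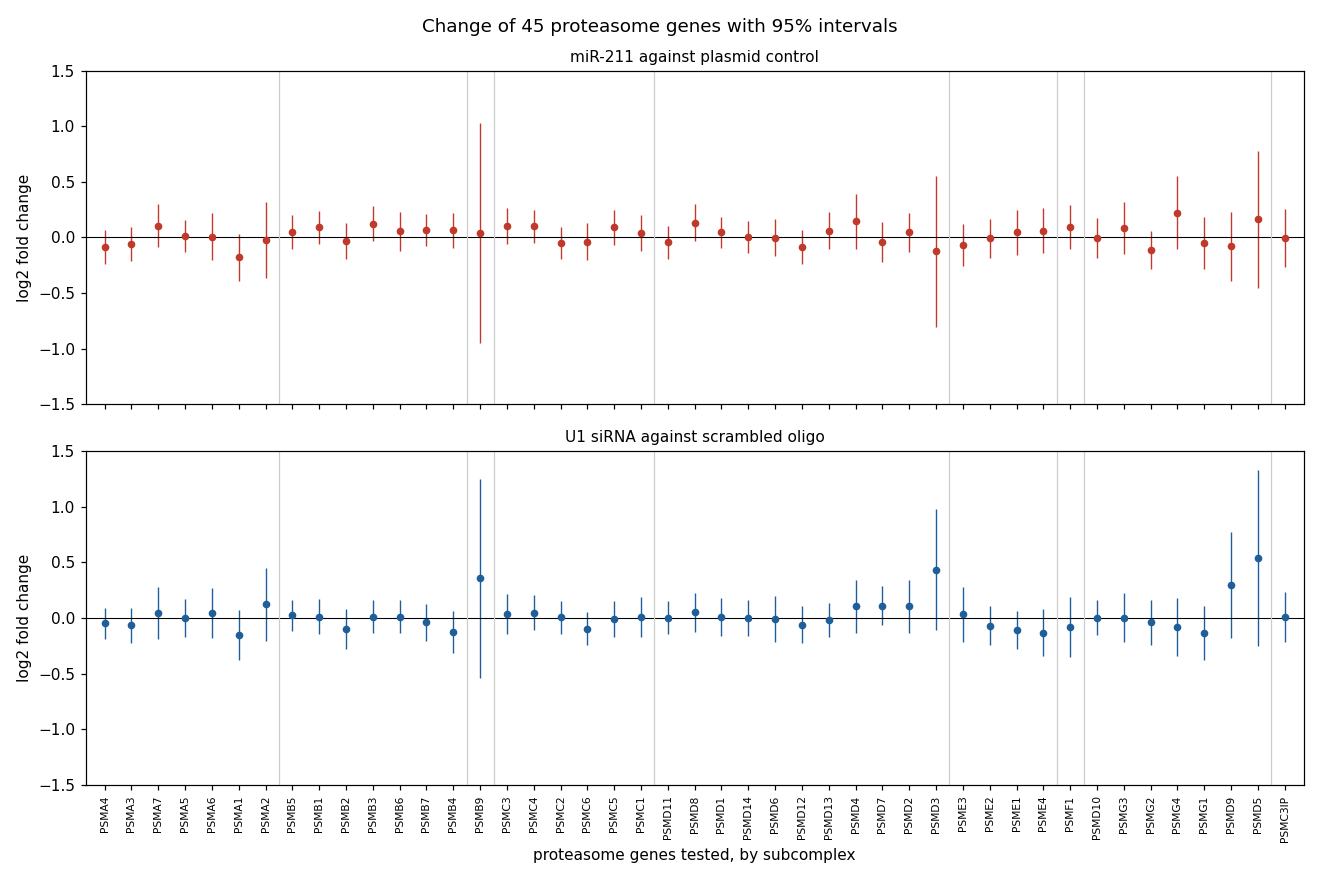
Log2 fold change (vertical axis) with 95% interval for each of the 45 proteasome genes tested, ordered by subcomplex along the horizontal axis, with miR-211 against plasmid control in the upper panel and U1 siRNA against scrambled oligo in the lower. Every interval is from a fit without the replicate block and includes 0. The widest belong to PSMB9, PSMD3 and PSMD5, which average at most 5.57 CPM, and in the lower panel also to PSMD9, at 12.5 CPM.

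With U1 siRNA no proteasome gene passed the test either. The same 45 genes were tested and 0 were called (edgeR, adjusted p 0.9999 for each), beside 0% of all 12413 genes tested. At an unadjusted p under 0.05 there were 0 proteasome genes, beside 1.58% of all genes, and DESeq2 and limma-voom called 0. The log2 fold changes ran from -0.15 for PSMA1 to 0.54 for PSMD5, with 41 of 45 within 0.2 of 0. Beside this stand 75.5% of all genes tested and 92.8% of the 7475 genes with a mean of at least 10 CPM. Their median was 0.0040, beside 0.02 over all genes, with 25 above 0 and 20 below. All 45 intervals included 0 and 41 lay within 0.5 of 0, beside 53.4% of all genes tested, a share not matched for level.

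By subcomplex the medians with U1 siRNA were -0.09 for the 4 activators, 3 of which were below 0, and between -0.00082 and 0.01 for the alpha ring, constitutive beta ring, ATPases, other regulatory-particle subunits and chaperones. U1 siRNA replicate 2 was low for most members, with 9 of 45 above the group mean. Without it the median log2 fold change was 0.04, and without replicate 1 it was -0.03.

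Of the 4 genes beyond 0.2, PSMD9 averaged 12.5 CPM over 12 libraries and the other 3 less. PSMD5 had 5.68, 5.54 and 2.61 CPM in the U1 siRNA libraries, against 3.27, 2.20 and 3.77 CPM in the scrambled-oligo libraries. Replicates 1 and 2 of U1 siRNA lay above the other 4 libraries and replicate 3 among them (log2 fold change 0.54 ± 0.36, 95% interval -0.25 to 1.33). PSMD3 came next at 0.44 ± 0.25, PSMB9 at 0.36 ± 0.41 and PSMD9, a base chaperone, at 0.30 ± 0.22, with overlap in each. For PSMD3 the plasmid comparison gave -0.13 ± 0.32.

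At the other end, PSMA1 had 37.5, 40.5 and 34.0 CPM in the U1 siRNA libraries, against 42.7, 42.7 and 38.4 CPM in the scrambled-oligo libraries. Its groups overlapped (log2 fold change -0.15 ± 0.10). PSMG1, a core-particle chaperone, had 38.0, 36.8 and 33.6 CPM in the U1 siRNA libraries, against 43.3, 37.4 and 37.8 CPM in the scrambled-oligo libraries, with overlap (-0.14 ± 0.11). PSME4, given above, was at -0.13 ± 0.10. PSMA1 was thus the lowest in both comparisons, which share no library, by the unstranded counts. With U1 siRNA its log2 fold change was 0.0014 by strand column 3 and -0.30 by strand column 4. With miR-211 it ran from -0.23 to -0.14 over the alternative runs.

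Groups did not overlap in CPM for 4 of 45 genes with U1 siRNA, beside 6.45% of all genes tested. PSMB5 was higher (log2 fold change 0.03 ± 0.06), and PSME1 (-0.11 ± 0.08), PSME4 and the ATPase PSMC6 (-0.10 ± 0.07) were lower. PSMC6 had 289, 295 and 298 CPM in the U1 siRNA libraries, against 311, 327 and 299 CPM in the scrambled-oligo libraries. None of these 4 was separate with miR-211, and none of the 4 separate with miR-211 was separate here.

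**Figure D5:**
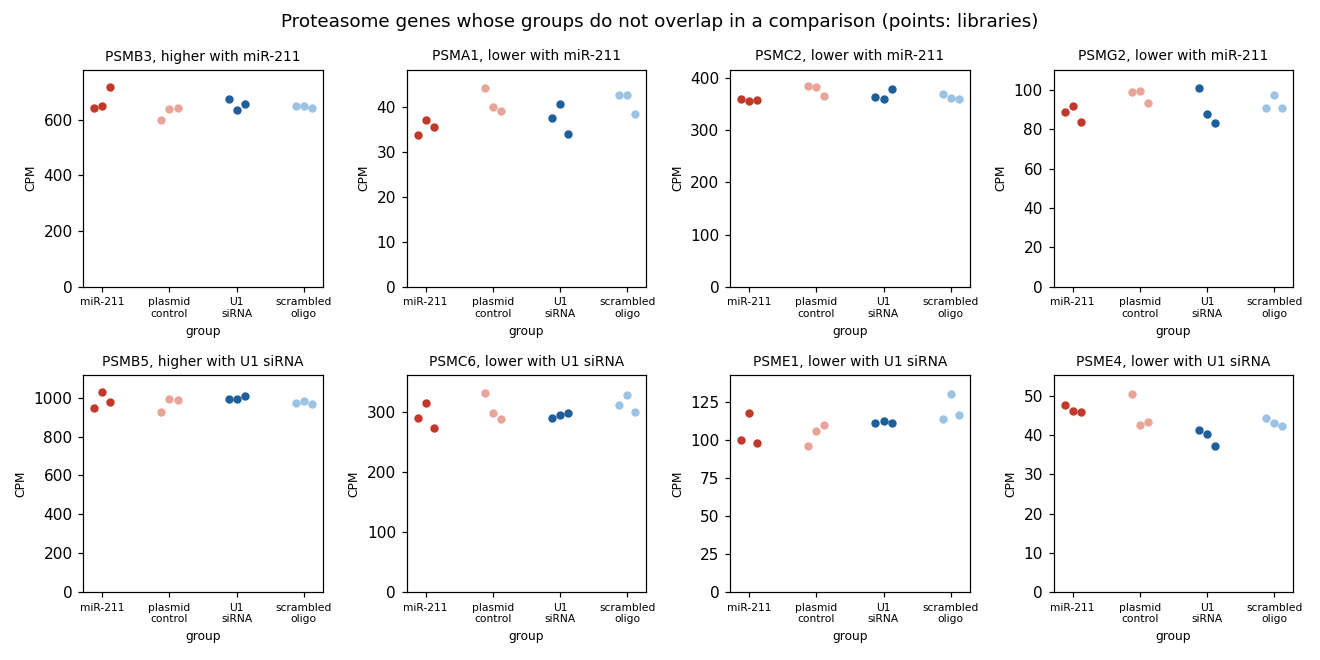
CPM (vertical axis from 0) of the 8 proteasome genes whose libraries do not overlap between the groups of a comparison, 4 with miR-211 in the upper row and 4 with U1 siRNA in the lower, with 1 point per library in all 4 groups. Gaps between the separate groups are small beside the level of each gene, and the other comparison overlaps in each panel.

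The 2 effects were not shown to differ for any proteasome gene. In a test of the difference over all 12 libraries, 0 of 45 members were called (edgeR interaction, lowest adjusted p 0.999), beside 0.0074% of 13520 genes. At an unadjusted p under 0.05 there were 0 members, beside 1.73% of all genes. The differences between log2 fold changes, miR-211 minus U1 siRNA, ran from -0.57 for PSMD3 to 0.29 for PSMG4.

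Other genes of the pathway were grouped by role, and 0 were called in either comparison in the lists given here. Of 8 shuttle receptors and unfoldase subunits tested, which carry ubiquitinated proteins to the proteasome, 2 were above 0 with miR-211 (median -0.10) and 3 with U1 siRNA (median -0.06). RAD23B had 93.6, 132 and 86.9 CPM with miR-211, against 149, 125 and 125 CPM with the plasmid control (-0.31 ± 0.13), with groups that overlapped. UBQLN4 had 26.6, 23.9 and 23.5 CPM with U1 siRNA, against 21.9, 23.2 and 19.2 CPM with the scrambled oligo (0.21 ± 0.13), with separate groups. Of 11 subunits and factors with other symbols, such as the core-particle chaperone POMP, the ubiquitin receptor ADRM1 and the deubiquitinases USP14 and UCHL5, 6 were above 0 in each comparison (medians 0.04 with miR-211 and 0.02 with U1 siRNA). Other pathway genes had separate groups too, among them POMP and NGLY1, lower with miR-211, and UBE3C, higher with U1 siRNA. Over all genes tested 9.7% were separate with miR-211 and 6.45% with U1 siRNA.

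Of 4 genes that control proteasome transcription, 2 were above 0 with miR-211 (median -0.0036) and 0 with U1 siRNA (median -0.12). NFE2L1 had 7.08, 11.6 and 14.4 CPM with miR-211, against 8.67, 10.5 and 10.3 CPM with the plasmid control, a log2 fold change of 0.21 ± 0.21. It had 11.7, 9.74 and 7.49 CPM with U1 siRNA, against 9.54, 9.66 and 12.2 CPM with the scrambled oligo, a log2 fold change of -0.13 ± 0.20, and groups overlapped in both. Of 12 antigen-presentation genes, 9 were above 0 with miR-211 (median 0.03) and 4 with U1 siRNA (median -0.05).

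TAP1 and TAP2, whose products form the transporter that carries proteasome peptides into the endoplasmic reticulum, are neighbours of PSMB8 and PSMB9. TAP1 had 2.31, 3.78 and 2.85 CPM with miR-211, against 2.41, 1.73 and 1.20 CPM with the plasmid control (0.81 ± 0.34). It had 3.47, 4.87 and 2.44 CPM with U1 siRNA, against 2.73, 2.03 and 2.37 CPM with the scrambled oligo (0.56 ± 0.36), with overlap in both comparisons. TAP2 had 9.30, 9.08 and 9.58 CPM with U1 siRNA, against 13.2, 11.3 and 10.8 CPM with the scrambled oligo, with separate groups (-0.34 ± 0.17), and 0.01 ± 0.17 with miR-211.

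NFE2L1 and its relative NFE2L2 bind the antioxidant response element, whose core reads TGACNNNGC. The promoters of 43 of the 49 genes (RefSeq, GRCh38.p14, 250 bases before to 50 after the start) could be read, and 13 held this core on either strand, 30.2% beside 14.3% of 14896 protein-coding promoters. The CCAAT box, a common promoter motif, was in 20 of 43, 46.5% beside 36.4%, and 4 of 43 held both, 9.30% beside 5.47%. The core was in 3 of 4 activators (PSME1, PSME2 and PSME4), 4 of the 6 chaperones read, 3 of 10 regulatory-particle subunits other than ATPases, 1 of 6 ATPases, 1 of 4 constitutive beta genes read, 1 of 4 inducible or tissue-specific beta genes (PSMB9) and 0 of 7 alpha-ring genes. Windows around the core, in capitals and read in the direction of the gene, are shown for 8 of the 13 as examples from the beta ring, the regulatory particle, the activators and the chaperones, with the first match of PSMD3. PSMC4, PSMD1, PSMD9, PSMD12 and PSMG1 also hold it.
PSMB3, chr17:38752627-38752655, plus strand: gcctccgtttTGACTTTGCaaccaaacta
PSMB9, chr6:32854034-32854062, plus strand: gggcggggctGCCTCGTCActtgtctcgg
PSMD3, chr17:39980760-39980788, plus strand: tcccctttgtTGACTCGGCcatcggcctg
PSMD5, chr9:120843038-120843066, minus strand: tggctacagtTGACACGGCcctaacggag
PSME1, chr14:24136098-24136126, plus strand: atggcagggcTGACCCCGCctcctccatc
PSME2, chr14:24146767-24146795, minus strand: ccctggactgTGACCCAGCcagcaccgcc
PSME4, chr2:53971009-53971037, minus strand: cccggcggctGCAGCGTCAccagcagagc
PSMG2, chr18:12658689-12658717, plus strand: cagtttcccgTGACCCCGCggccgctctg

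PSMB9 and PSME4 hold the core on the opposite strand, so the reverse complement of the core is in capitals there. Of the 13 genes with the core, 7 were above 0 with miR-211, with log2 fold changes of 0.12 for PSMB3, 0.04 for PSMB9, 0.10 for PSMC4, 0.05 for PSMD1, 0.16 for PSMD5, 0.05 for PSME1 and 0.06 for PSME4. The other 6 had -0.09 for PSMD12, -0.13 for PSMD3, -0.08 for PSMD9, -0.01 for PSME2, -0.05 for PSMG1 and -0.11 for PSMG2. With U1 siRNA 7 were above 0, with 0.01 for PSMB3, 0.36 for PSMB9, 0.05 for PSMC4, 0.01 for PSMD1, 0.44 for PSMD3, 0.54 for PSMD5 and 0.30 for PSMD9. The other 6 had -0.06 for PSMD12, -0.11 for PSME1, -0.07 for PSME2, -0.13 for PSME4, -0.14 for PSMG1 and -0.04 for PSMG2. None was called in either comparison. A match is a description of the letters, and says nothing of whether a factor binds there.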

How the data were processed

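RNA of 12 HEK293T libraries was sequenced and aligned with STAR 2.7.2a, per the submitters' processing notes. The deposited files hold the authors' raw read counts per gene, unstranded and for each strand. The notes name GRCh37, but the gene identifiers are those of GENCODE 29, so positions here are from GENCODE 29 on GRCh38 and the build of the alignment is not settled. Unstranded counts were used. Rows of unassigned reads stayed out of totals and tests.

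The members and lists were chosen with earlier results of these data known. Named genes are the catalytic beta subunits, PSMD14, the activators, NFE2L1 and the 3 highest and lowest per kb and per comparison. Of the 3 other pathway genes with the smallest p in each comparison, those in the lists reported are also named. Of the pathway lists, 1 list and its genes are not reported here, so those given do not stand for the whole pathway. Genes passing filterByExpr (minimum count 10) were tested per comparison with the quasi-likelihood test of edgeR 4.0.16 in R 4.3.3, TMM scaling and Benjamini-Hochberg adjustment over all genes at 0.05. DESeq2 1.42.0, limma-voom (limma 3.58.1), other filters, scalings, strands and lengths, a replicate block and leaving out each library were alternatives. The lengths of principal transcripts were added after seeing the data. The tests were checked on simulated counts. Replicates differed by more than sampling noise (a chi-square of 2.15 to 7.25 for each degree of freedom).

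Replicate numbers come from the labels. Deviations of same-numbered miR-211 and plasmid control libraries correlated at 0.248, 0.305 and 0.239, so these numbers were taken as pairs. Promoters and the mature miRNA are from RefSeq (GRCh38.p14). Proteins were translated from the coding sequences of GENCODE transcripts.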

Additional observations from a re-analysis of the deposited data

Results flagged for a closer look

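The effect of the miR-211 plasmid on MIR211 differed from that of the U1 siRNA by 7.83 on the log2 scale (SE 1.15, edgeR interaction, adjusted p 0.0447). No proteasome gene met a criterion for a closer look.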

How the results depend on the processing

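No proteasome gene was called under any alternative run, in either comparison or for the difference between both effects. The sign of single fold changes, none of which was called, was less stable. With miR-211 it changed for at most 12 of 45 genes, without miR-211 replicate 1, and with U1 siRNA for at most 17 of 45, without a filter. For miR-211, 2 genes in all were called without a filter and with either strand column. The median log2 fold change of the proteasome genes ranged from -0.0020 to 0.0295 when each library was left out, and was 0.0397 with the replicate block. For U1 siRNA, 7 genes were called without a filter, where the median of the proteasome genes was -0.0639. Leaving out each library gave -0.0279 to 0.0375. Same-numbered U1 siRNA and scrambled-oligo libraries correlated at 0.14, 0.0907 and -0.048, so the numbers were not taken as pairs. With the replicate block the median was 0.0042 and 0 genes were called. For the difference between both effects, 3 genes were called without a filter, 0 without scaling, with either strand column or with the replicate block, and 0 to 1 with a library left out. The immunoproteasome share of catalytic subunits, without division by length, was 0.112% with miR-211, 0.112% with the plasmid control, 0.184% for U1 siRNA and 0.140% for the scrambled oligo. With principal transcript lengths it was 0.130%, 0.128%, 0.225% and 0.170% in the same order. With the scrambled oligo it was 0.0741% with the longest transcript, and 0.121% and 0.0696% with either strand column. Depth limits PSMA8, PSMB8, PSMB10 and PSMB11, which were not tested. Wide intervals went with few counts for PSMB9, PSMD3 and PSMD5, which averaged at most 5.57 CPM. With U1 siRNA that of PSMD9 was wide too (SE 0.22), and its scrambled-oligo libraries ran from 8.72 to 15.5 CPM. PSMA2, with a lower mean level than PSMD9, had an SE of 0.15 there.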
